A study of Mus musculus with 6 samples.

Results

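Genes of the interferon pathway were examined in skin keratinocytes of mice aged 7 weeks, sorted for the alpha-6 integrin of basal keratinocytes into CD34+ cells and CD34- cells. The members are 42 genes taken by name: interferon receptors and their kinases, STATs, interferon regulatory factors (IRFs), feedback inhibitors, and antiviral and GTPase targets. Probes were found by accession or description, and 41 of the 42 had one. Only Oas1a was matched to no probe and is not analysed here. All 41 passed the filter on dim probes, among 20087 features tested (9172 named genes and 10915 unnamed probes). In mouse skin CD34 is a marker of bulge stem cells of the hair follicle. The labels call alpha-6+CD34+ cells stem and progenitor cells and alpha-6+CD34- cells basal cells. There were 3 biological replicates of each fraction, and each replicate was read on 2 arrays of 2 colours with the dyes exchanged. The labels used here give no strain, sex or number of mice, and name no treatment other than the trypsin digestion and the antibody stain for sorting, which both fractions share.

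Interferons bind receptors at the cell surface, whose attached kinases of the JAK family phosphorylate STAT proteins. Type I interferons act through STAT2 in a complex with IRF9 on interferon-stimulated response elements. Interferon gamma acts through STAT dimers on gamma-activated sequences and raises IRF1, which in turn acts on genes of antigen presentation. SOCS proteins and USP18 damp the signal, and the targets include antiviral proteins and GTPases that attack intracellular pathogens.

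Values are log2 of the CD34+ signal over the CD34- signal, so that a negative value means a lower signal in CD34+ cells. A mean over the replicates is given ± SD with n = 3. Adjusted p-values come from limma's moderated test of the mean ratio against 0, with Benjamini-Hochberg adjustment over all 20087 features, and a gene passed at a value under 0.05. Intensities are normalised levels in arbitrary units, include an added offset of 50, and cannot be compared between genes. The software marked 92.9% to 97.7% of probes per array and population as well above background, and all 41 genes had this mark in both populations on 6 of 6 arrays. Cd34, the sorting marker, was higher in CD34+ cells by 5.84 ± 0.43, and Itga6, the other gate, was lower at -1.18 ± 0.27 (adjusted p 0.00366 and 0.0180). The Cd34 value checks the direction of the labels. Both fractions were sorted for alpha-6 integrin, so the Itga6 value does not check them. Precision is limited by the small number of biological replicates.

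Of the 41 interferon pathway genes, 11 were lower in CD34+ cells, 0 were higher and 30 did not pass. That is 26.8% lower, beside 6.64% of all features lower in CD34+ cells, 5.41% higher and 12.1% called in either direction. By unadjusted p under 0.05, limma counted 16 of the 41 lower and 2 higher, beside 3220 lower and 2937 higher of all 20087 features. The 11 were Ifngr1 and Jak1 (receptor and kinase), Stat2, Stat3 and Stat5a, Irf4, Irf5 and Irf9, the inhibitor Socs3, and the targets Isg15 and Irgm1. The median over the 41 genes was -0.089, against 0.0042 over all features, and 27 of the 41 had a negative mean. Genes of signal reception, relay and feedback held 9 of the 11 calls. Among receptors, kinases, STATs, IRFs and inhibitors 9 of 24 were lower (37.5%), against 2 of 17 (11.8%) among the antiviral and GTPase targets. The difference between these shares was not tested. Without replicate 1 limma called 0 of the 41 genes and 0 of all features, although at an unadjusted p under 0.05 it counted 12 of the 41 and 2579 of all features lower, and 0 and 2037 higher. With replicate 2 left out 1 of the 41 passed, Ifngr1, beside 0.811% of all features lower and 0.667% higher. Without replicate 3 there were 13 lower and 2 higher, beside 10.7% and 10.2% of all features.

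**Figure D1:**
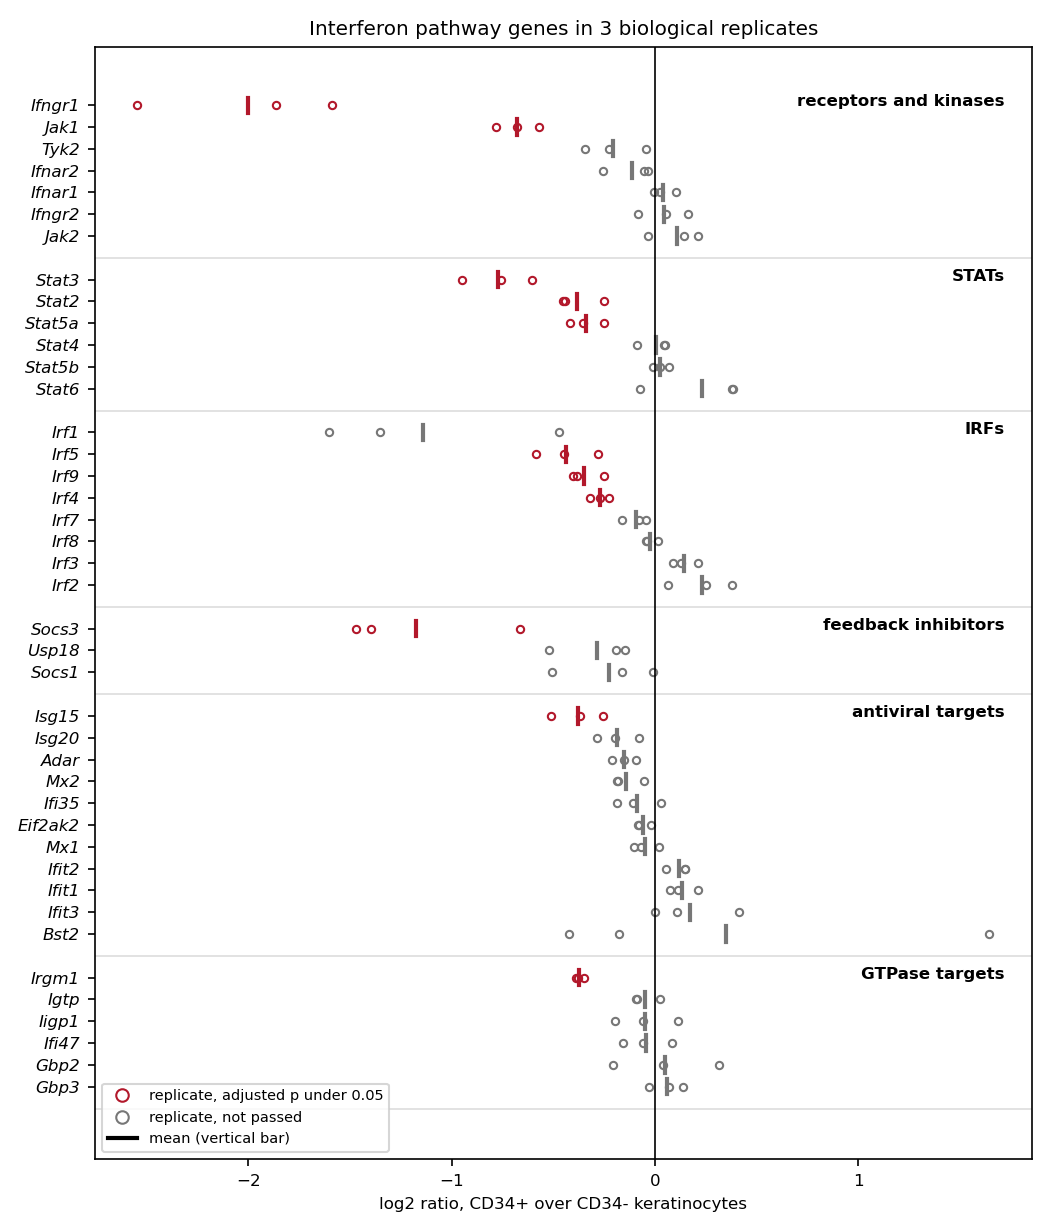
The horizontal axis is the log2 ratio of CD34+ over CD34- keratinocytes, and each row is 1 of the 41 genes, grouped by role. Circles are the 3 biological replicates (each the mean of 2 dye-exchanged arrays), vertical bars their means, and red marks the 11 genes with an adjusted p under 0.05, all of which lie left of 0. Irf1 lies as far left as Socs3 but has a wider spread, and Bst2 has 1 replicate far to the right.

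Ifngr1, the chain of the interferon gamma receptor that binds the ligand, differed most. Its intensity was 1419, 907 and 1850.5 in CD34+ cells of replicates 1, 2 and 3, against 5163, 5294 and 5560.1 in CD34- cells. Every CD34+ value lay below every CD34- value, and the CD34- values were close together. The log2 ratio was -1.999 ± 0.493 (adjusted p 0.0188), a 3.996-fold lower signal in CD34+ cells, and 0.11% of all features had a lower ratio. Because the cells were measured in bulk, fewer cells with the transcript and less of it per cell cannot be told apart, here or for any gene below. The partner chain Ifngr2 stood at 0.045 ± 0.12 (adjusted p 0.684), with 2 replicates above 0 and 1 below. The chains of the type I interferon receptor did not pass, Ifnar1 at 0.042 ± 0.057 and Ifnar2 at -0.11 ± 0.12. For each of these 3 chains the SD was larger than the mean.

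Jak1, the kinase that serves both receptor types, had intensities of 669.8, 496 and 725 in CD34+ cells, against 1072, 853 and 1076 in CD34- cells. The populations did not overlap. Its ratio was -0.68 ± 0.11, or 1.60-fold lower in CD34+ cells (adjusted p 0.0158), and it was lower on 6 of 6 arrays. The partner kinases did not pass: Tyk2, of the type I receptor, was at -0.21 ± 0.15 (adjusted p 0.151), and Jak2, of the interferon gamma receptor, was at 0.11 ± 0.13 (adjusted p 0.342). Thus 2 of the 7 receptor and kinase genes were lower, 1 for a chain of the interferon gamma receptor and 1 for a kinase of both receptor types.

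Among the 6 STAT genes measured, 3 were lower in CD34+ cells and 3 did not pass. Stat3, the transcription factor of the interleukin-6 family of cytokines, had intensities of 1654, 948 and 1991 in CD34+ cells, against 2796, 1829.9 and 3025 in CD34- cells. Within each replicate the CD34+ value was the lower one, although the ranges overlap because replicate 2 was low in both populations. Its ratio was -0.77 ± 0.17 (adjusted p 0.0193), 1.71-fold lower. The scanner files describe this probe only as similar to Stat3, so the name rests on that description.

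Stat2, the STAT of the type I response, had intensities of 124, 106 and 116 in CD34+ cells, against 147, 144 and 159 in CD34- cells. Stat5a, which relays growth factor and cytokine signals, had 453, 429 and 454 in CD34+ cells and 606, 548 and 539 in CD34- cells. Neither gene's populations overlap, and both differences are small. The ratios were -0.38 ± 0.11 for Stat2 and -0.34 ± 0.086 for Stat5a, with adjusted p-values of 0.0349 and 0.0341. Stat5b, the near copy of Stat5a, was at 0.027 ± 0.039 (adjusted p 0.730), and whether the probes tell the copies apart was not tested. Stat4, a STAT of lymphocytes, was at 0.0037 ± 0.079.

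Stat6, the STAT of interleukin-4 signals, was read by probes that disagree. Its brighter probe gave 0.38 and 0.38 in replicates 1 and 2 but -0.071 in replicate 3, a mean of 0.23 ± 0.26 with an adjusted p of 0.253. The dimmer probe gave -0.24 ± 0.055 (adjusted p 0.0510 over all probes). Neither probe passed and no direction is given for Stat6; without replicate 3 the brighter probe passed at 0.38, with an adjusted p of 0.0153.

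Of 8 IRF genes, 3 were lower in CD34+ cells, 0 higher and 5 did not pass. Irf9, the DNA-binding partner of STAT2, had intensities of 249, 196 and 165 in CD34+ cells, against 330.1, 234 and 216 in CD34- cells. The ranges overlap between replicates but CD34+ was lower within each, and the ratio was -0.35 ± 0.082 (adjusted p 0.0317). Stat2 and Irf9, which act in the same complex, were thus both lower. Without an offset Stat2 was at -0.64 and Irf9 at -0.45.

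Irf5, a factor of the Toll-like receptor response best known in myeloid cells, had 159.9, 161 and 159 in CD34+ cells and 218, 242 and 194 in CD34- cells. Irf4, a factor best known in lymphocytes and dendritic cells, had 139, 159 and 168 in CD34+ cells and 174, 192 and 196 in CD34- cells. No CD34+ value reached a CD34- value for either gene. The ratios were -0.44 ± 0.15 for Irf5 (adjusted p 0.0370) and -0.27 ± 0.047 for Irf4 (adjusted p 0.0375), and without an offset they were -0.60 and -0.40. Irf8, which directs the formation of myeloid and dendritic cells, was at -0.024 ± 0.033 (adjusted p 0.760).

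Markers of Langerhans and dendritic cells stood beside these IRF genes as follows. Of 11 tested, 0 were higher and 1 was lower in CD34+ cells, Tyrobp at -0.24 ± 0.046 (adjusted p 0.0472), and the median was -0.12. Their summed intensity was 2189 to 2602 in CD34+ cells and 2338 to 2881 in CD34- cells, where the offset counts in every gene, so that no marker can be at 0. Cd207, the gene of langerin, had 400.4, 214 and 556 in CD34+ cells and 240.1, 461 and 571 in CD34- cells, higher in CD34+ cells in replicate 1 and lower in replicates 2 and 3. Of 7 T cell markers 1 was higher, the interleukin-2 receptor chain Il2rb at 0.28 ± 0.069 (adjusted p 0.0427), and the list's summed intensity was 3551 to 4271 in CD34+ cells and 2989.9 to 3883 in CD34- cells. Brighter probes weigh more in such sums. The largest part of the T cell sum was Cd3e, with 1710.5 to 2742 in CD34+ cells and 1294 to 2376 in CD34- cells. The part of other cell types in the IRF values was not tested.

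Irf1, a factor that interferon gamma raises directly, had intensities of 1052, 755 and 1171 in CD34+ cells, against 2685, 2291 and 1622 in CD34- cells. The populations did not overlap, and Irf1 was lower on 6 of 6 arrays. Its ratio was -1.35, -1.60 and -0.47 in replicates 1, 2 and 3, a mean of -1.14 ± 0.59, or 2.21-fold lower. With this spread the adjusted p was 0.0557, so Irf1 did not pass. It passed under 7 of 15 other ways of processing, with adjusted p-values between 0.0031 and 0.201 over all of them and ratios between -1.48 and -0.91. The other IRF genes were closer to 0: Irf7, which amplifies the type I response, was at -0.094 ± 0.061, Irf3, which starts it, at 0.14 ± 0.064, and Irf2, an antagonist of IRF1, at 0.23 ± 0.16. Irf2 and Irf3 lay above 0 on 6 of 6 arrays, without passing (adjusted p 0.132 and 0.144).

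Socs3, which blocks JAK kinases and is itself raised by STAT3, was the feedback inhibitor that passed. Its intensity was 5828, 5084 and 4488 in CD34+ cells, against 15319, 14095 and 7106 in CD34- cells. All CD34+ values were lower than all CD34- values, and the CD34- value of replicate 3 was the lowest of its population. The ratio was -1.39, -1.47 and -0.66 in replicates 1, 2 and 3, a mean of -1.18 ± 0.45, 2.26-fold lower with an adjusted p of 0.0320. Usp18, a protease that removes ISG15 from proteins and damps the type I receptor, was at -0.29 ± 0.20 (adjusted p 0.125). Socs1, an inhibitor of the interferon gamma receptor, was at -0.23 ± 0.25 (adjusted p 0.251), with replicate values of -0.51, -0.16 and -0.0091.

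Replicate 3 gave the smallest ratio of the 3 for Irf1 and for every gene that passed as lower except Stat2 and Irf9. Its arrays were read with another version of the scanner software than those of replicates 1 and 2, so version and replicate cannot be told apart. Within replicates 1 and 2 alone, 13 of the 41 genes were lower (31.7%), beside 10.7% of all features. There 2 were higher (4.88%), Irf2 at 0.31 and Stat6 at 0.38, beside 10.2% of all features. Replicate 3 alone allows no test.

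**Figure D2:**
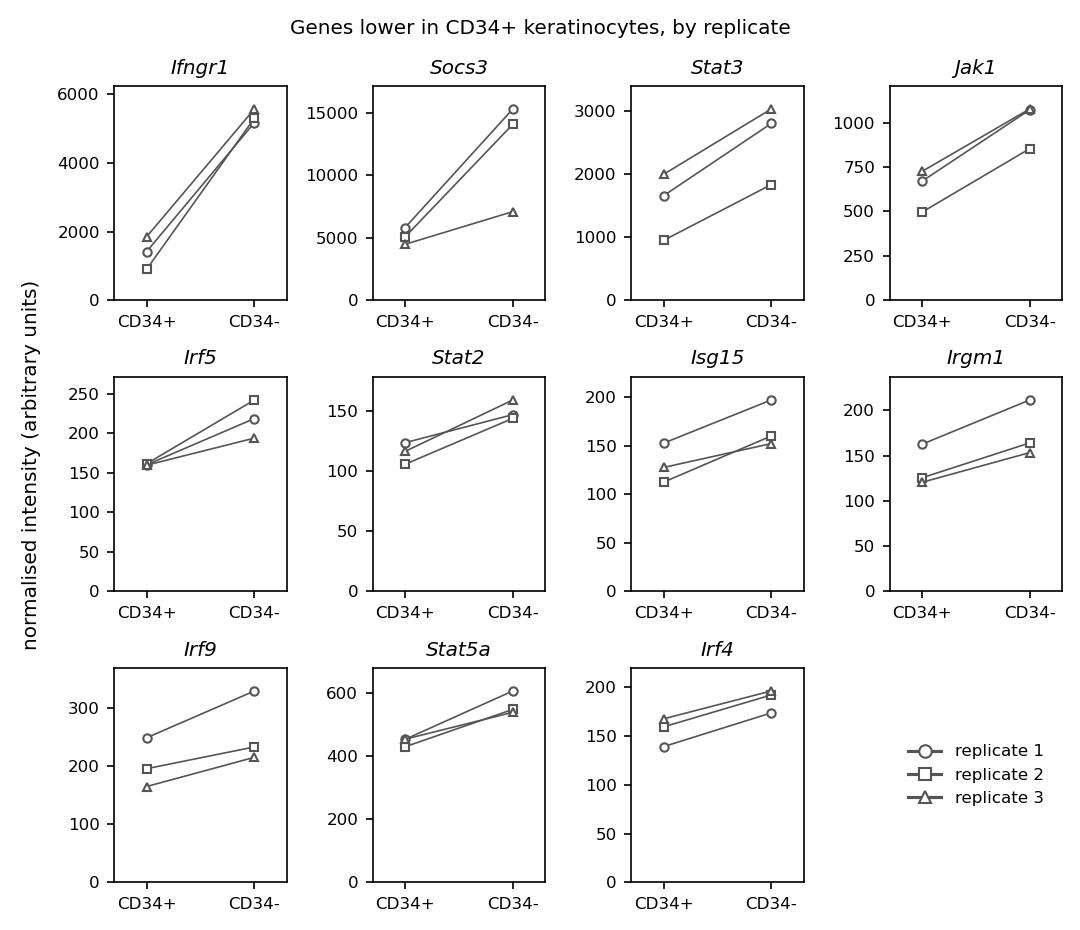
Each panel is 1 of the 11 genes that were lower in CD34+ cells, ordered by their ratio, with the normalised intensity on a vertical axis that starts at 0. CD34+ values are on the left and CD34- values on the right, and a line joins the populations of a replicate. Every line slopes upward from CD34+ to CD34-, steeply for Ifngr1 and for Socs3 in replicates 1 and 2. Each axis is scaled to its own gene, and the mean log2 ratio is closest to 0 for Irf4, at -0.27.

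Most antiviral targets did not pass. Of 11 measured, 1 was lower, 0 were higher and 10 did not pass, with a median of -0.061. Isg15, a ubiquitin-like protein joined to other proteins during the interferon response, had intensities of 153, 113 and 128 in CD34+ cells, against 197, 160.2 and 152 in CD34- cells. The ranges touch, but the CD34+ value was lower in each replicate and on 6 of 6 arrays. The ratio was -0.38 ± 0.13 (adjusted p 0.0396), and without an offset it was -0.59.

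The Ifit genes, whose proteins bind foreign RNA, stood on the other side of 0 from Isg15. Ifit1 had 111, 129 and 89.1 in CD34+ cells and 106, 112 and 82.4 in CD34- cells, a ratio of 0.13 ± 0.072 (adjusted p 0.175). Ifit2 was at 0.12 ± 0.054 and Ifit3 at 0.17 ± 0.21 (adjusted p 0.189 and 0.300). None passed, and the signs of Ifit1 and Ifit2 turned in 1 of 15 other ways of processing. Mx1 and Mx2, GTPases that block viruses, were at -0.051 ± 0.065 and -0.14 ± 0.075. Isg20, an exonuclease of RNA, was at -0.19 ± 0.10, Adar, which edits double-stranded RNA, at -0.15 ± 0.061, Eif2ak2, the kinase PKR, at -0.061 ± 0.036, and Ifi35 at -0.089 ± 0.11.

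Bst2, or tetherin, which holds budding viruses at the cell surface, had the highest mean of the 41 genes at 0.35 ± 1.13 (adjusted p 0.650), and that mean came from 1 array. On the array of replicate 3 with CD34+ cells in Cy3 the ratio was 3.44, while on the other 5 arrays, among them the dye-exchanged array of the same replicate, it lay between -0.47 and -0.13. With CD34+ in Cy5 alone Bst2 was at -0.28 (adjusted p 0.0854), and without replicate 3 at -0.30 (adjusted p 0.0766). The probe is described in the scanner files only as similar to Bst2.

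Of the 6 GTPase targets, immunity-related proteins that act on the membranes around intracellular pathogens, 1 was lower and 5 did not pass. Irgm1 had intensities of 163, 126 and 121 in CD34+ cells, against 212, 164 and 153 in CD34- cells. Its ratios of -0.38, -0.39 and -0.35 were the least spread of the 41 genes, with a mean of -0.37 ± 0.021 and an adjusted p of 0.0210. The others lay near 0, with means of 0.050 ± 0.26 for Gbp2, 0.058 ± 0.084 for Gbp3, -0.051 ± 0.068 for Igtp, -0.048 ± 0.16 for Iigp1 and -0.045 ± 0.12 for Ifi47. These genes belong to families with near copies, and signal from a copy cannot be told apart here.

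Many targets were dim, which bounds what their ratios can show. The intensity stayed below 200 in every replicate of both populations for 8 of 11 antiviral and 3 of 6 GTPase targets, beside 2 of 7 receptors and kinases, 2 of 6 STATs, 2 of 8 IRFs and 0 of 3 inhibitors. The offset of 50 pulls the ratio of a dim gene towards 0. Without it, Stat2 was at -0.64, Irgm1 at -0.56, Ifit1 at 0.28 and Ifit3 at 0.41, each over 1.5 times the value above, and 11 genes were lower there too, though not the same 11: Stat5a no longer passed (adjusted p 0.0505) and Irf1 did (adjusted p 0.0415).

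Antigen presentation genes, themselves targets of interferon, were lower in CD34+ cells in 11 of 13 cases (84.6%) and higher in 0. Over all features 6.64% were lower. Like the others, this list was chosen with earlier results of these data known, so its share is not independent of them. The median of the 13 was -1.02, against -0.051 for the antiviral and GTPase targets. H2-M3, a class I molecule that presents formylated peptides, was at -1.02 ± 0.25 (adjusted p 0.0196). Tap1, which carries peptides into the endoplasmic reticulum, was at -1.02 ± 0.31 (adjusted p 0.0237). Psmb9 and Psmb8, subunits of the immunoproteasome, were at -1.43 ± 0.46 and -1.68 ± 0.58 (adjusted p 0.0249 and 0.0271). The intensity of Tap1 was 162, 129.9 and 141 in CD34+ cells and 311, 334 and 239 in CD34- cells, with no overlap. The difference between these groups was not tested, and without replicate 1 none of the 13 was lower at the threshold, without replicate 2 there were 3, with scaling between arrays 5, and with populations as unpaired channels 4.

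Of 32 other interferon targets, 4 were higher in CD34+ cells, where 5.41% of all features were higher, and 2 were lower. The median of the 32 was -0.061. The share lower, 6.25%, was near the 6.64% of all features. The count depended on the processing: it was 4 with the deposited ratios, without an offset, with median centring or with CD34+ in Cy5 alone, 5 with CD34+ in Cy3 alone, 8 with a dye or version term, 0 unpaired, and 0, 1 and 7 without replicates 1, 2 and 3. The lower ones were Ifitm3, a membrane protein that blocks viral entry, at -1.23 ± 0.33 (adjusted p 0.0204), and Samhd1, which depletes nucleotides, at -0.30 ± 0.093 (adjusted p 0.0449). Ifitm3 had 2583, 1834 and 1580.1 in CD34+ cells, against 5962, 5432 and 2972 in CD34- cells, with no overlap. Its neighbour in the family, Ifitm2, moved the other way, at 0.40 ± 0.036 (adjusted p 0.0204), with 3382, 3525 and 2721 in CD34+ cells and 2494, 2727 and 2073 in CD34- cells. The other higher genes were Trim25, a ubiquitin ligase of the RNA-sensing pathway, at 0.51 ± 0.083, Oasl2, of the oligoadenylate synthetase family, at 0.39 ± 0.13, and Tor3a, a torsin ATPase, at 0.95 ± 0.45 (adjusted p 0.0196, 0.0384 and 0.0470).

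Among 22 ligands, sensors and other regulators, 0 were higher and 2 were lower. The share lower was 9.09%, near the 6.64% of all features. The lower genes were Ptpn1 and Ptpn2, phosphatases that act on JAK kinases and STATs, at -0.67 ± 0.21 and -0.38 ± 0.097 (adjusted p 0.0281 and 0.0300). The interferon genes tested stood near 0, Ifng at -0.020 ± 0.032, Ifna1 at -0.025 ± 0.033 and Ifna4 at -0.13 ± 0.11. Their intensities of 144 to 345 in the 2 populations are signal above background and do not show that the interferons were made.

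**Figure D3:**
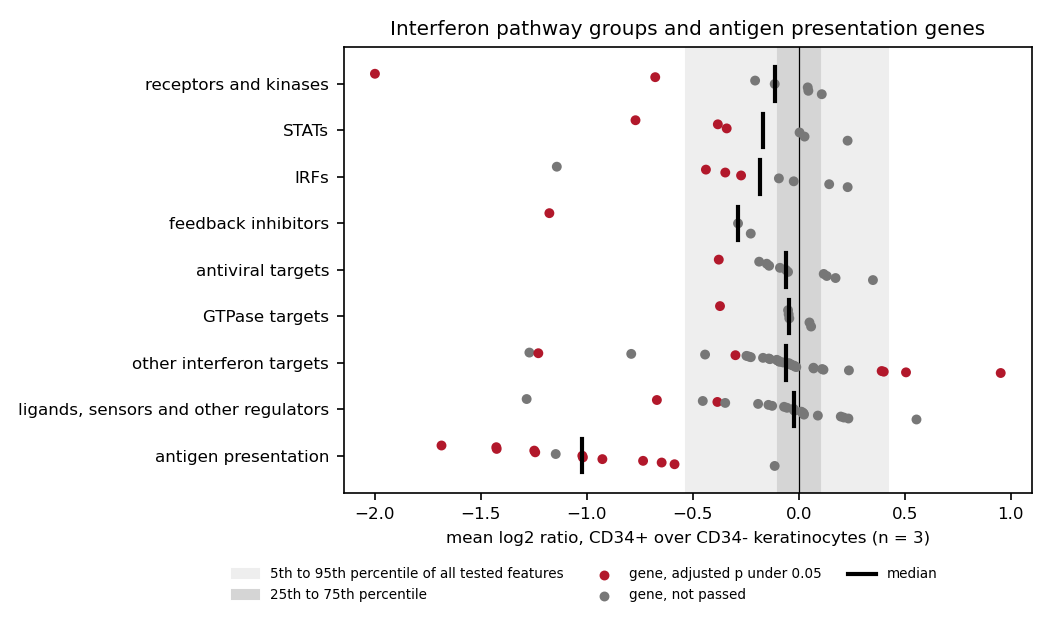
Each dot is the mean log2 ratio of CD34+ over CD34- keratinocytes of 1 gene (n = 3), in rows for the 6 groups of the interferon pathway and 3 further lists. Red dots passed at an adjusted p under 0.05, black bars are medians, and grey bands span the 5th to 95th and 25th to 75th percentiles of all tested features. The median of antigen presentation is -1.02 and those of the antiviral and GTPase rows are -0.061 and -0.046. These rows differ in signal level, with 8 of 11 antiviral, 3 of 6 GTPase and 0 of 13 antigen presentation genes below 200 throughout. All lists were chosen with earlier results of these data known.

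The sorted fractions also differed in keratinocyte markers. Of 5 basal markers 2 were higher (Col17a1 and Itgb4) and 2 lower in CD34+ cells. The lower ones were Itga6, used as a gate in the sort, and Krt14, whose spot was saturated on 4 of 6 arrays. Of 2 suprabasal markers tested, Ivl was at -0.062 ± 0.0078 (adjusted p 0.395), and the keratin Krt1 was lower at -2.28 ± 1.10 (adjusted p 0.0465), with 438, 218 and 1021 in CD34+ cells and 2060.4, 2291 and 2349 in CD34- cells. Of 4 melanocyte markers Dct was higher at 0.79 ± 0.29, and of 4 fibroblast markers Col1a2 was higher at 1.02 ± 0.11 (adjusted p 0.0325 and 0.0104). The other melanocyte markers did not pass, with Tyrp1 at 0.032, Pmel at 0.042 and Tyr at -0.032. Nor did the other fibroblast markers, Lum at 0.34, Pdgfra at 0.074 and Dcn at -0.0042. Dct had intensities of 253 to 422 in CD34+ cells and 150 to 228 in CD34- cells. Col1a2 had 363 to 711 in CD34+ cells and 196 to 328 in CD34- cells. Summed intensities of melanocyte markers were 549.6 to 791 in CD34+ cells and 432 to 582 in CD34- cells, and those of fibroblast markers 819 to 1165 in CD34+ cells and 560.3 to 774 in CD34- cells. The part of these cells in the interferon pathway values was not tested.

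Promoter letters were set beside the ratios, to show which members carry the elements the pathway acts on. The windows ran from 250 bases before to 50 after each transcript start in RefSeq's annotation of GRCm38.p6, and 37 of the 41 genes had one. The core of the interferon-stimulated response element was searched as GAAANNGAAA, or TTTCNNTTTC on the other strand, and the gamma-activated sequence as TTCNNNGAA, which reads the same on both strands. Matches may overlap each other. The response element core was in 13 of 37 genes (35.1%), against 3.99% of all genes with a window and 3.44% of all windows. By role it was in 4 of 5 GTPase targets, 5 of 9 antiviral targets, 2 of 6 STATs, 1 of 8 IRFs, 1 of 2 inhibitors and 0 of 7 receptors and kinases. It was in 3 of the 11 genes lower in CD34+ cells, which were Isg15, Irgm1 and Stat2, and in 10 of the 26 that did not pass. The following stretches lie before the start, on the strand of the gene and 5′ to 3′, with the matched letters in capitals. Isg15, Irgm1 and Stat2 were lower in CD34+ cells, and Ifit1, Gbp2 and Igtp, which did not pass, carry the same kind of match; in Igtp the first run of capitals is a gamma-activated sequence.
Isg15 (chr4:156200860-156200911, minus strand): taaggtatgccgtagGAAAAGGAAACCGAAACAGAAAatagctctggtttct
Irgm1 (chr11:48871421-48871465, minus strand): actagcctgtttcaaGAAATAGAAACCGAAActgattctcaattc
Stat2 (chr10:128270261-128270300, plus strand): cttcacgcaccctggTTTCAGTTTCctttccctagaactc
Ifit1 (chr19:34640770-34640828, plus strand): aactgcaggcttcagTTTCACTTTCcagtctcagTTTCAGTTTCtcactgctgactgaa
Gbp2 (chr3:142620589-142620628, plus strand): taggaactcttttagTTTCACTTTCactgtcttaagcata
Igtp (chr11:58199496-58199546, plus strand): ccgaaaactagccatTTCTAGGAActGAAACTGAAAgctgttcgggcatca

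Isg15 and Irgm1 hold runs of 3 and 2 overlapping matches, with GAAACCGAAA in both. A match thus stood before genes that were lower and before genes that stood near 0. The gamma-activated sequence was in 13 of 37 genes (35.1%), against 9.55% of all genes with a window and 8.3% of all windows. It was in 1 of the 11 lower genes, Socs3, and in 12 of the 26 that did not pass. Irf1, lower on 6 of 6 arrays without passing, carries one, as does Bst2, where it overlaps the first of 2 response element cores.
Irf1 (chr11:53769909-53769947, plus strand): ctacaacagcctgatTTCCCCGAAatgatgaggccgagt
Bst2 (chr8:71537572-71537623, minus strand): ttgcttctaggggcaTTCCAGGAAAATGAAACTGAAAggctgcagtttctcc

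A match describes letters in a window only, and a window without one says nothing of elements elsewhere.

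**Figure D4:**
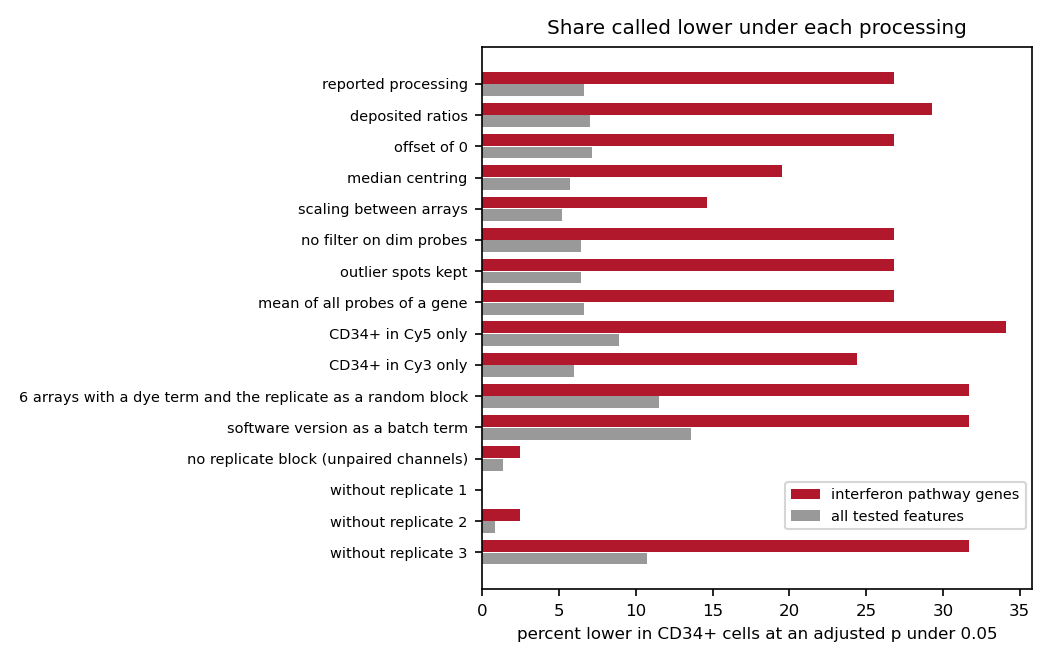
Bars give the percentage of features lower in CD34+ cells at an adjusted p under 0.05, for the 41 interferon pathway genes (red) and all tested features (grey), under the reported processing and 15 alternatives. The shares are 26.8% and 6.64% in the top row, and both are 0 without replicate 1. Of the 15 alternatives, the red bar is the longer one in each that called any feature.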

How the data were processed

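Total RNA of both populations was amplified, labelled with Cy3 or Cy5 and hybridised in pairs to oligonucleotide arrays, per the labels. Spot and local background intensities were read with Agilent Feature Extraction, in one version for replicates 1 and 2 and an older one for replicate 3, per the file headers. That software also background-subtracted and dye-normalised the signals behind the deposited log10 ratios (Cy5 to Cy3), per the file headers. The authors' deposited value table is the negative of these ratios (largest difference 0, column medians 0, 0, 0, 0.0019, 0.0026 and 0.0027).

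The labels number replicates 1 and 2; the remaining pair of arrays was taken as replicate 3. The populations are paired on each array. With limma 3.58.1 in R 4.3.3, backgrounds were corrected by normexp with an offset of 50, arrays normalised by loess with control and outlier spots at weight 0, signs turned to CD34+ over CD34-, and both arrays of a replicate averaged. Intensities per population were scaled by Aquantile. Of 20868 probes, 472 were left out as dim (under 2 replicates well above background in each population) and 182 for outlier marks; 8947 were named by RefSeq accession, and the brightest probe stood for a gene. Means were tested with lmFit and eBayes, also on simulated data. Described are every member, up to 4 passing genes per further list and direction, and marker lists. Members and lists were chosen with earlier results of these data known. Scan dates were not used.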

Additional observations from a re-analysis of the deposited data

How the results depend on the processing

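All 11 genes kept a negative ratio under each of 15 alternatives. Of these alternatives Ifngr1 passed in 14, Jak1, Stat2, Stat3 and Irgm1 in 12, Irf5, Irf9 and Socs3 in 11, and Stat5a, Irf4 and Isg15 in 9. Scaling between arrays left 6 genes of the pathway lower (14.6%), beside 5.21% of all features. CD34+ in Cy5 alone gave 1 higher (Stat6), where 7.15% of all features were higher, and a median of -0.16. The software version as a batch term gave 3 higher (Stat6, Irf2 and Bst2), or 7.32%, beside 12.8% of all features. The older version holds replicate 3 alone, so that term takes this replicate out of the spread and tests nothing about the version, and Bst2's mean of 0.35 there still rests on 1 array. Over all features, 6 arrays with a dye term gave 2301 lower and 1953 higher, and the version term 2731 lower and 2574 higher. Without the replicate block, the pairing on each array, populations fitted as unpaired channels left 1 pathway gene lower (Ifngr1), with 269 of all features lower and 280 higher. Leaving out each replicate in turn gave 0 to 13 pathway genes lower, 0 to 2 higher and medians of -0.13 to -0.060, and over all features 0 to 2155 lower and 0 to 2043 higher. These fits leave 2 replicates or drop the pairing; other causes were not tested. The median of all features stayed between 7.9e-05 and 0.033.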

Other observations

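Some genes near the threshold, picked here after their values were seen, had the pattern of Irf1, with ratios clearly below 0 in replicates 1 and 2 and smaller ones in replicate 3. Cxcl10, a chemokine raised by interferon gamma, had -1.58, -1.68 and -0.55 in replicates 1, 2 and 3 (adjusted p 0.0504). Cish, an inhibitor raised by STAT5, had -1.82, -1.50 and -0.52 (adjusted p 0.0571), and Ifi204 had -0.94, -1.11 and -0.32 (adjusted p 0.0579). Il6st, a receptor chain that signals through STAT3, had -0.61, -0.54 and -0.21 (adjusted p 0.0561). Osmr, another such chain, had no such order, with -0.24, -0.53 and -0.27 (adjusted p 0.0588). All 5 were lower in CD34+ cells in each of the 3 replicates, and none passed.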
